A study of Anopheles gambiae with 18 samples.

Results

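The anterior midgut of the female *Anopheles gambiae* mosquito was compared with both parts of the posterior midgut across 13404 of the 14197 transcripts on a 60-mer oligonucleotide array. The comparison used 9 of the 18 arrays of the study. On 3 arrays Cy5-labeled RNA of the anterior midgut, on 3 RNA of the front portion of the posterior midgut (anterior-posterior) and on 3 RNA of its rear portion (posterior-posterior) was hybridized against Cy3-labeled RNA of the whole female midgut. All were 4-day-old, unfed females of the Keele strain kept on a sugar solution, with 3 biological replicas a compartment and no dye swap. Each value is a log2 ratio to the whole midgut, centred on the median of its array. The difference is the anterior mean minus the mean of both posterior means, so that the shared reference and a dye effect common to the arrays cancel. Transcripts were kept where all 9 arrays had a value. Identifiers are shortened by the middle digits, so that EN020647 stands for ENSANGT00000020647.

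The mosquito midgut begins at the cardia, the valve-like junction with the foregut, continues as a narrow anterior tube and widens into the posterior midgut. Sugar is digested and taken up by the midgut epithelium, whereas blood is stored in the posterior sac, where trypsins and carboxypeptidases digest it inside the chitin-containing peritrophic matrix. Midgut cells also express antimicrobial peptides and recognition proteins that act on bacteria and malaria parasites. The dissected pieces hold visceral muscle, endocrine cells and nerve endings beside the epithelium.

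No transcript differed between the anterior midgut and the posterior parts in the test across all transcripts. With limma at a Benjamini-Hochberg adjusted p under 0.05 and a 2-fold difference, 0 of 13404 (0%) were called in either direction, and the lowest adjusted p was 0.9998. At an unadjusted p under 0.05 there were 137 transcripts with the higher mean in the anterior midgut (1.02%) and 252 with the higher mean in the posterior parts (1.88%). Together these were 2.9% of the transcripts, below the 5% that such a threshold passes when nothing differs. A t-test with pooled variance of the 3 anterior against all 6 posterior arrays, unadjusted and with a 2-fold difference, gave 41 and 54 transcripts. After adjustment it gave 0. It joins both posterior parts in 1 group, so that their difference enters its spread. The study's methods name t-tests of replicate ratios, and not this comparison. The comparisons with each posterior part alone share the anterior arrays. Against the anterior-posterior part limma called 0 transcripts, with 610 at an unadjusted p under 0.05 (4.55%), and such a t-test of 3 against 3 arrays gave 207. Against the posterior-posterior part limma called 0, with 318 at an unadjusted p under 0.05 (2.37%), and the t-test gave 156. Between both posterior parts limma also called 0 transcripts, with 5.89% at an unadjusted p under 0.05.

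The values that follow therefore describe these arrays. No transcript below passed the test, and groups of transcripts were not tested. The median standard error of a difference was 0.42, and the median 95% interval reached 0.903 to each side on the log2 scale. The interval of 3313 transcripts (24.7%) lay wholly within 2-fold of no difference. For the others a 2-fold difference in at least 1 direction was inside the interval, so that the missing calls do not show equal abundance. In samples of whole tissue, fewer cells of a type and less RNA per cell cannot be told apart.

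The likeness of arrays within a compartment overlapped in range with that between compartments. Pearson's r across transcripts was 0.368 to 0.644 among the anterior arrays, 0.243 to 0.453 among the anterior-posterior and 0.101 to 0.402 among the posterior-posterior arrays. Between anterior and anterior-posterior arrays it was 0.11 to 0.614, and between anterior and posterior-posterior arrays 0.0652 to 0.634. Anterior-posterior replicate 3 and posterior-posterior replicate 2 stood apart, with r of at most 0.287 and 0.197 to any other array. The share of spots whose ratio is a fraction of small whole numbers, as few units of signal would give, was 63.2% on anterior-posterior replicate 2 and 3.96% to 24.4% on the others. Leaving out the 2 arrays that stood apart, a choice made after seeing the data, again gave 0 calls with limma.

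The same 2 arrays had the lowest medians of several midgut lists, although single digestive transcripts were high on them. The 64 cytosolic ribosomal proteins had a median centred log2 ratio of 1.09 to 2.27 on the other 7 arrays, but 0.677 on anterior-posterior replicate 3 and 0.396 on posterior-posterior replicate 2. Trypsin 3 (EN006721) had 2.15 and 1.91 on the same arrays. The fixed markers of the posterior digestive epithelium, which were trypsins 3, 4, 5 and 7 with the carboxypeptidases and aminopeptidases N, had medians of 0.752, 0.927 and 0.494 on the anterior arrays. They were at 1.95, 1.75 and 0.146 on the anterior-posterior and at 1.25, 0.168 and 1.46 on the posterior-posterior arrays. Thus 4 posterior arrays were above all anterior arrays and the 2 arrays that stood apart were below them. The 0.927 is the value of trypsins 3, 4 and 5 on anterior replicate 2, where their ratio was 1 between the dyes. It equals that array's own median with the sign turned. Of these 21 markers, 15 had a lower mean in the anterior midgut, with a median difference of -0.11 beside 0.01 over all transcripts. Without the 2 arrays the median was -0.54, and 20 of the 21 were lower. Since these were the posterior arrays with the lowest medians of such lists, leaving them out lowers the anterior minus posterior difference of those lists by construction, here and in the values without them that follow.

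**Figure D1:**
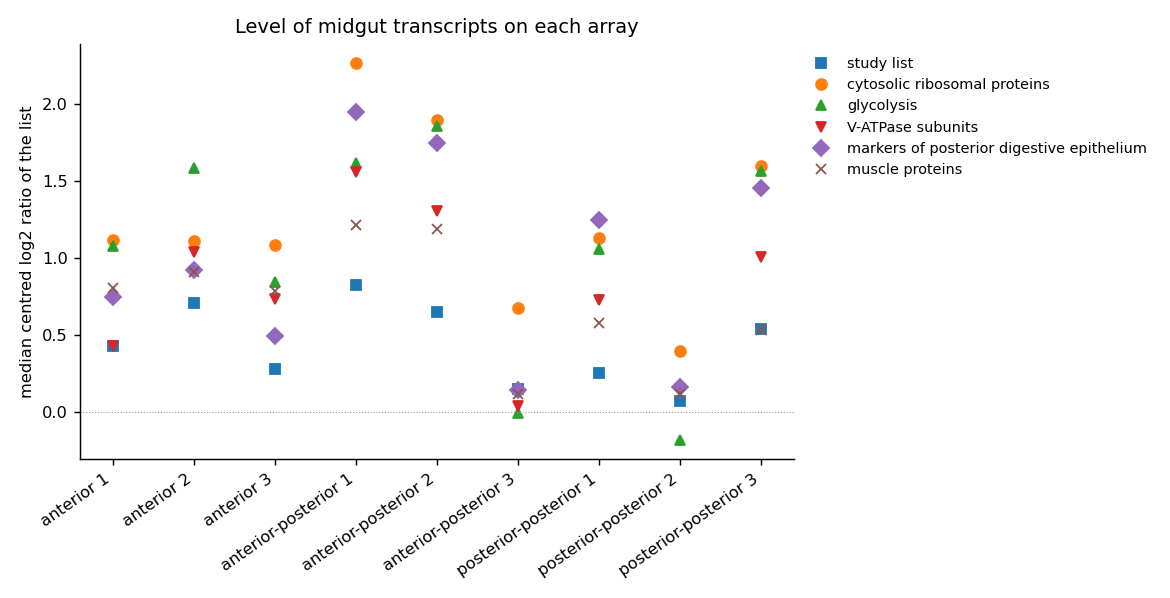
Median centred log2 ratio to the whole female midgut (vertical axis) of 6 lists on each of the 9 arrays (horizontal axis), one symbol a list. The study list is the set of 3014 transcripts of the study's supplementary tables with a value on all 9 arrays, and on anterior-posterior replicate 3 and posterior-posterior replicate 2 its median is 0.151 and 0.0749, with 0.256 to 0.83 on the other arrays.

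A further limit concerned spots with the same signal in both dyes. On anterior replicate 2 the uncentred log2 ratio was within 0.01 of 0, a ratio of 1 between the dyes, for 202 spots, whereas the 10 neighbouring bins of the same width held 59 to 80. On posterior-posterior replicate 1 there were 123 such spots beside 16 to 34, and on anterior-posterior replicate 1 there were 61 beside 25 to 41. Anterior-posterior replicate 2 had 103 beside 20 to 54 and posterior-posterior replicate 2 had 68 beside 7 to 33, but on these arrays 63.2% and 19.0% of all ratios were small fractions, and they were left out of the next counts. Among the complete transcripts 229 had such a ratio on at least 1 of the 3 former arrays and 23 on all 3, among them trypsin 3, trypsin 4 and cecropin 3. Of the 64 cytosolic ribosomal proteins, 27 had it on at least 1. No intensities came with the ratios, and whether these spots were at the upper limit of the scanner was not tested.

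By size alone, 121 transcripts (0.903%) had an anterior mean at least 2-fold above that of the posterior parts and 286 (2.13%) one at least 2-fold below, or 3.04% in all. Outside the study's supplementary tables were 59 of the 121 and 205 of the 286, beside 10390 of all 13404 transcripts. The split into higher and lower depended on the scaling. Centring on the male versus female list of the study gave 82 and 404, quantile normalization 188 and 287, and no centring 1013 and 66. The median of all differences was 0.46 without centring and -0.10 with the male versus female list, so that each difference is read relative to the median of all transcripts. With no centring the medians of all 30 functional lists described below were above 0, the lowest being 0.26 for the thioester-containing proteins, and with the male versus female list those that are 0.10 or less here were below 0. Single arrays also moved these counts. The anterior-higher count was 255 without anterior replicate 1, 225 without anterior replicate 2, 185 without anterior-posterior replicate 1, 203 without posterior-posterior replicate 1 and 201 without posterior-posterior replicate 3. The posterior-higher count was 546 without anterior replicate 2 and 513 without anterior-posterior replicate 2. Between 3 arrays and 3 arrays, 6.51% of transcripts differed at least 2-fold between anterior and anterior-posterior, 4.93% between anterior and posterior-posterior and 8.37% between both posterior parts.

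Among many transcripts, some have groups that do not overlap even when nothing differs, so that lack of overlap is not a test. The 3 anterior arrays were all above the 6 posterior arrays for 82 transcripts (0.612%) and all below them for 70 (0.522%). Of these, 18 and 32 also differed at least 2-fold, and 4 and 7 of those carry a homology name or a gene family in the probe identifier. They are given next, and were chosen after their values were seen.

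Synaptotagmin (EN020647), the calcium sensor of vesicle fusion in neurons and endocrine cells, led the named transcripts on the anterior side. Its centred log2 ratios were 1.39, 1.97 and 0.45 on the anterior arrays, 0.12, -0.56 and -0.69 on the anterior-posterior and -0.26, -0.78 and -0.71 on the posterior-posterior arrays. All 3 anterior arrays were above every posterior array, and 5 of the 6 posterior values were below 0. The difference was 1.75 ± 0.40 (SE), a 3.36-fold higher mean, with a 95% interval of 0.89 to 2.61. Of the other 9 neuropeptide and synaptic transcripts none was past 2-fold. The lowest was the neuropeptide F precursor (EN020873) at -0.82 ± 0.51 (SE), and the median of the 10 was 0.04.

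A facilitated glucose transporter of solute carrier family 2 (EN022745), which lets sugar cross the membrane along its gradient, had anterior values of 1.32, 1.82 and 2.47. Its values were 0.68, 1.22 and 0.27 on the anterior-posterior and 0.09, 0.04 and 0.91 on the posterior-posterior arrays. The groups did not overlap, although the lowest anterior and the highest posterior array were close. The difference was 1.34 ± 0.40 (SE), with a 95% interval of 0.49 to 2.19.

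Glutathione S-transferases, which conjugate toxic compounds to glutathione, gave 2 of the 4 named transcripts on the anterior side. EN011261 had 0.64, 1.08 and 0.77 on the anterior arrays, -0.58, -0.74 and -0.23 on the anterior-posterior and -1.03, -0.24 and -0.04 on the posterior-posterior arrays. It was above its array's median on all anterior arrays and below it on all posterior arrays, with a difference of 1.31 ± 0.36 (SE). EN024592 had anterior values of 1.29, 1.76 and 0.54 beside a highest posterior value of 0.45, and a difference of 1.19 ± 0.39 (SE). Another member, EN011770, had the opposite direction at -1.06 ± 0.47 (SE), and the median of the 17 measured members was 0.13.

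On the posterior side the leading named transcript was a kinase (EN010533), whose homology name gives no family. It had 0.55, 0.16 and -0.23 on the anterior, 2.88, 1.95 and 3.14 on the anterior-posterior and 1.22, 1.76 and 1.01 on the posterior-posterior arrays. Each anterior-posterior array was above each posterior-posterior array, which in turn was above each anterior array. The difference was -1.84 ± 0.39 (SE), a 3.57-fold lower mean in the anterior midgut, with -2.50 against the anterior-posterior and -1.17 against the posterior-posterior part. A guanylate cyclase (EN006240), which makes the second messenger cGMP, had anterior values of -0.26, -0.85 and -1.76. It had 1.88, 0.17 and 2.47 on the anterior-posterior and -0.17, 0.51 and 0.00 on the posterior-posterior arrays, so that the groups did not overlap but nearly met at -0.26 and -0.17. The difference was -1.77 ± 0.50 (SE).

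A sodium/hydrogen exchanger (EN004030), which trades sodium against protons across the membrane, had anterior values of -0.63, -1.20 and -0.47. It had 0.31, 1.16 and 1.02 on the anterior-posterior and 0.58, -0.03 and 1.17 on the posterior-posterior arrays. The difference was -1.47 ± 0.39 (SE), a 2.77-fold lower mean, and it was of like size against the anterior-posterior (-1.60) and the posterior-posterior part (-1.34). A transcript whose probes carry the family name of the thioester-containing proteins (EN016849), complement-like recognition proteins, had -1.48, -1.29 and -1.14 on the anterior arrays. On the anterior-posterior arrays it had 1.64, 0.27 and 0.78 and on the posterior-posterior arrays -0.64, 0.53 and -1.05. The anterior values lay below all others, although 2 posterior-posterior arrays were close to them, and the difference was -1.56 ± 0.43 (SE).

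Smaller differences among the named were a copia element (EN012752) at -1.25 ± 0.39 (SE), a cuticle protein (EN010057) at -1.15 ± 0.38 (SE) and a mitochondrial acyl-CoA dehydrogenase (EN028342), which starts fatty acid oxidation, at -1.05 ± 0.36 (SE). Of the non-overlapping transcripts without a name, the largest were EN012822 at -2.67 ± 0.53 (SE), EN026211 at -2.07 ± 0.47 (SE) and EN028794 at -1.77 ± 0.56 (SE) on the posterior side. On the anterior side they were EN017577 at 1.77 ± 0.46 (SE), EN024342 at 1.69 ± 0.45 (SE) and EN028214 at 1.44 ± 0.39 (SE). These had no small-fraction ratio, whereas EN012822 had it on 1 array and EN026211 and EN028794 on 2 each. Of the named transcripts, EN011261, EN010533, EN016849 and EN010057 had it on 2 arrays each. EN022745, EN024592, EN006240 and EN028342 had it on 1 each, and EN020647, EN004030 and EN012752 had none. EN012822 had -1.39, -0.07 and -2.84 on the anterior and 2.78, 1.65 and 2.22 on the anterior-posterior arrays, but -0.06, 0.82 and 0.02 on the posterior-posterior arrays. Its highest anterior and its lowest posterior-posterior value were thus nearly the same. None of these 17 transcripts changed sign under any alternative that was run, and under none did one pass the test, with a lowest adjusted p of 0.136 under array weights.

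**Figure D2:**
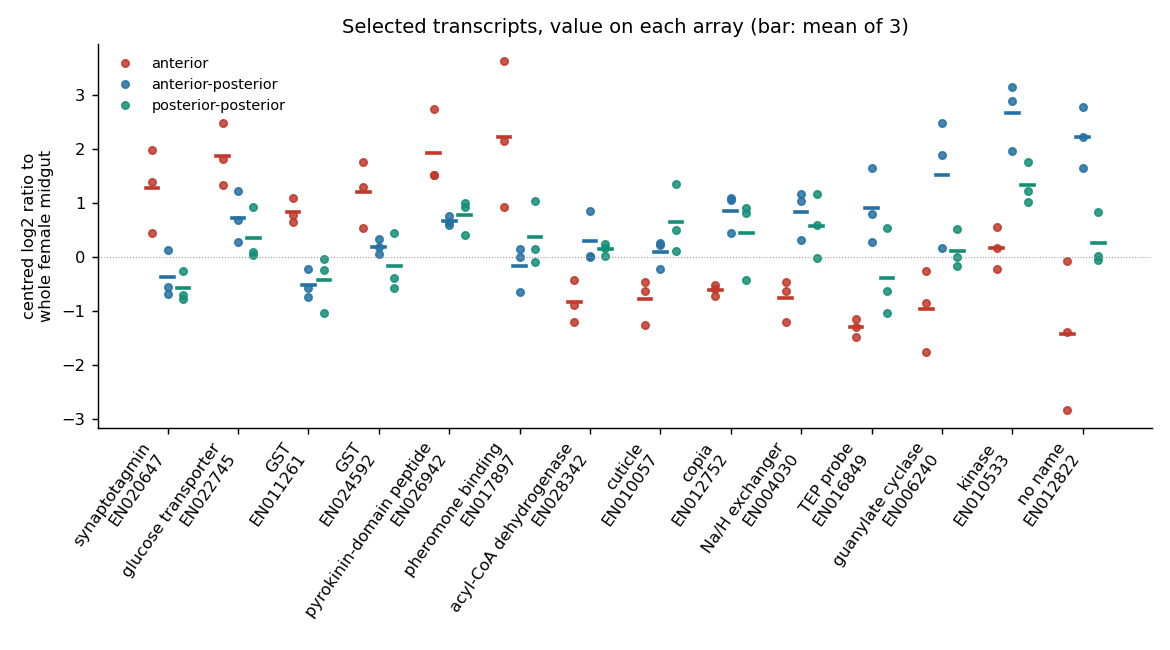
Centred log2 ratio to the whole female midgut (vertical axis) of 14 transcripts on the 3 anterior, 3 anterior-posterior and 3 posterior-posterior arrays (points), with the mean of each 3 as a bar. The anterior points lie outside the range of the 6 posterior points for 13 of the 14, the exception being the pheromone-binding transcript, whose lowest anterior value (0.91) is below the highest posterior value (1.03).

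Soluble odorant carriers gave the largest positive difference of all transcripts. The pheromone-binding protein EN017897 had 2.14, 0.91 and 3.62 on the anterior arrays, 0.15, -0.66 and -0.01 on the anterior-posterior and 0.15, -0.09 and 1.03 on the posterior-posterior arrays. Only anterior replicate 2 and posterior-posterior replicate 3 overlapped, and the difference was 2.13 ± 0.52 (SE). Of the 11 measured members, 3 were at least 2-fold higher in the anterior midgut and 0 at least 2-fold lower. Over all transcripts these shares were 0.903% and 2.13%, and the groups of each of the 3 members overlapped. The others of these 3 were EN013682 at 1.41 ± 0.44 (SE) and EN025153 at 1.17 ± 0.45 (SE), both chosen after their values were seen. The median of the 11 was 0.09, and 6 of them were positive.

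Separate arrays of the same study bear on these values. On 3 further arrays, Cy5-labeled cardia, the compartment that borders the anterior midgut, was hybridized against Cy3-labeled posterior midgut, and these arrays entered neither the difference nor its choice of transcripts. Each of these arrays was also centred on its own median, so that near-even shares of higher and lower transcripts follow from the scaling. The study, with its own processing, counted far more transcripts enriched in the posterior midgut than in the cardia. Over all 13175 transcripts with values, the cardia had the higher centred mean for 48.3% and at least a 2-fold higher one for 2.38%. Among the transcripts at least 2-fold higher in the anterior midgut, 83 of 119 (69.7%) were also higher in the cardia than in the posterior midgut. At least 2-fold higher in the cardia were 34 (28.6%), which is 10.8% of all such cardia transcripts, and 1 was at least 2-fold lower. Among those at least 2-fold higher in the posterior parts, 202 of 278 (72.7%) were lower in the cardia, where 51.7% of all transcripts were. At least 2-fold lower were 16 (5.76%), beside 2.22% of all, and 1 was at least 2-fold higher.

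The shares were higher among transcripts without a small-fraction ratio. Of the 2482 transcripts with no small-fraction ratio on the 9 arrays, 43 were at least 2-fold higher in the anterior midgut. Of the 42 of these with values, 39 (92.9%) were higher in the cardia, beside 55.5% of the 2474 such transcripts. Of the 50 that were at least 2-fold higher in the posterior parts, 39 (78%) were lower in the cardia, beside 44.5%. Across transcripts, Pearson's r between the difference and the cardia versus posterior ratio was 0.20 for all, 0.317 for the 2474 and 0.324 for the 2977 transcripts of the study's supplementary tables. Those tables include the study's cardia versus posterior results, so that the 2977 were partly chosen on the same arrays. They held 71% of all transcripts at least 2-fold higher in the cardia. Transcripts are not independent replicates and they share probe and base composition between the arrays. The cardia versus posterior arrays had no dye swap either, and their ratio, unlike the difference, keeps any bias of a probe towards one dye.

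**Figure D3:**
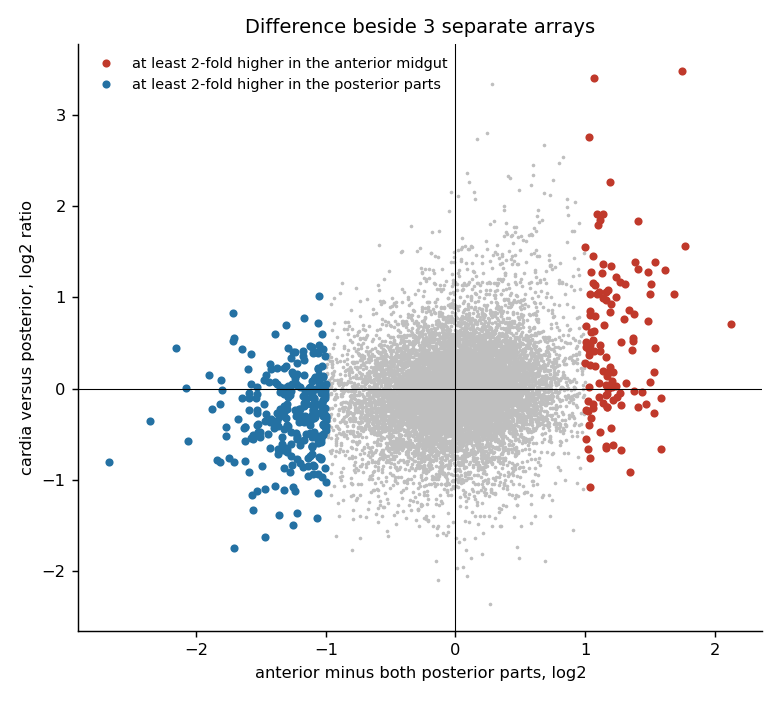
Difference of the anterior midgut and both posterior parts (horizontal axis, log2) beside the mean cardia versus posterior log2 ratio of 3 separate arrays, each centred on its median (vertical axis), one point a transcript. Of the transcripts at least 2-fold higher in the anterior midgut (red), 83 of 119 lie above 0 on the vertical axis, and of those at least 2-fold higher in the posterior parts (blue), 202 of 278 lie below it.

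The named transcripts at least 2-fold apart in both were chosen after their values were seen. On the cardia versus posterior arrays synaptotagmin (EN020647) had 2.41, 3.84 and 4.20 and the glutathione S-transferase EN011261 had 0.69, 0.97 and 1.77. A mitochondrial enoyl-CoA isomerase (EN028561), which prepares unsaturated fatty acids for oxidation, had 3.13, 3.36 and 3.69 there and a difference of 1.07 ± 0.38 (SE) between anterior and posterior parts. Its anterior values of 0.92, 1.38 and 0.04 overlapped with the posterior ones by anterior replicate 3 alone. Both receptor precursors with the enzyme number of tyrosine kinases, EN027221 and EN003182, had differences of 1.03 ± 0.45 (SE) and 1.51 ± 0.54 (SE), with cardia versus posterior means of 2.75 and 1.14. Phosphorylethanolamine transferase (EN012337), an enzyme of phospholipid synthesis, had 1.14 ± 0.45 (SE) and 1.91. The groups of EN027221, EN003182 and EN012337 overlapped as well. Anterior replicate 3 was the highest array of EN003182 (3.67) and EN012337 (3.83).

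Further names on this side were a tubulin chain (EN013034) at 1.495 ± 0.46 (SE), subunit 2 of the CCR4-NOT complex (EN010439), which shortens mRNA tails, at 1.54 ± 0.47 (SE), and an F-spondin precursor (EN008856) at 1.13 ± 0.41 (SE). A myosin phosphatase regulatory subunit (EN015633), a cytochrome P450 (EN010313) and serpin 6 (EN010545) had 1.16, 1.09 and 1.005. The groups of each of these further names overlapped, and anterior replicate 3 was the highest array of EN010439 (3.69). EN026942, for which the study describes a peptide with a signal sequence and a pyrokinin domain, the mark of a family of insect neurohormones, had anterior values of 1.51, 1.51 and 2.74. All 6 posterior values of it lay between 0.41 and 0.99. Its difference was 1.20 ± 0.38 (SE) and its cardia versus posterior ratios were 1.86, 1.19 and 0.96. The study's own cardia over posterior ratio for it was higher in the cardia but under 2-fold. For the other peptide with this domain that the study describes, its ratio was lower in the cardia, also by less than 2-fold. On the posterior side were the sodium/hydrogen exchanger EN004030, with cardia versus posterior ratios of -0.94, -1.998 and -1.94, the copia element, the thioester-containing protein probe EN016849 and transferrin (EN021903), the iron carrier, with a difference of -1.002 ± 0.42 (SE). The ratio of transferrin on posterior-posterior replicate 1 was 1 between the dyes.

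The 4 trypsins that the study names had lower anterior means, and each overlapped between the groups. Trypsin 4 (EN018384) had 1.02, 0.93 and 1.78 on the anterior arrays, 2.35, 2.36 and 2.08 on the anterior-posterior and 1.28, 1.77 and 2.16 on the posterior-posterior arrays. Its anterior values were below all anterior-posterior values and mixed with the posterior-posterior ones, and the difference was -0.76 ± 0.36 (SE, 95% interval -1.54 to 0.01). Trypsin 3 (EN006721) had -0.74 (95% interval -1.59 to 0.11), trypsin 7 (EN018316) -0.57 (-1.54 to 0.41) and trypsin 5 (EN018317) -0.10 (-1.34 to 1.14). The ratios of trypsins 3 and 4 were 1 between the dyes on anterior replicate 2, anterior-posterior replicate 1 and posterior-posterior replicate 1. That of trypsin 5 was 1 on anterior replicate 2. For these arrays the values given equal the array's own median with the sign turned.

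The study also names 2 carboxypeptidases. EN021052 had 1.04, 1.45 and 1.23 on the anterior arrays, 2.33, 2.40 and 2.26 on the anterior-posterior and 1.28, 1.40 and 2.33 on the posterior-posterior arrays. Again the anterior-posterior arrays were higher throughout and the posterior-posterior arrays overlapped with the anterior ones, with a difference of -0.76 ± 0.35 (SE). The 1.28 of EN021052 on posterior-posterior replicate 1 was a ratio of 1 between the dyes. EN020553 had -0.01 (95% interval -1.09 to 1.08). Of the 18 measured carboxy- and aminopeptidases, which cut single residues from peptide ends, 7 had a positive difference, and the median was -0.08. The 2 members past 2-fold were an aminopeptidase N (EN001203) at -1.52 ± 0.55 (SE) and, chosen after its value was seen, a zinc carboxypeptidase (EN021942) at -1.32 ± 0.44 (SE). EN001203 had 0.77, 1.06 and -1.56 on the anterior arrays beside 0.66 to 2.06 on the posterior ones, and without anterior replicate 3 its difference was -0.697. Its ratio on posterior-posterior replicate 1 was 1 between the dyes. The highest member was another aminopeptidase N (EN002729) at 0.57 ± 0.56 (SE). Of the 45 trypsins and other serine proteases 18 were positive, 0 reached 2-fold in either direction and the median was -0.12. They ran from -0.996 for EN024348 to 0.92 for EN020787. Without anterior-posterior replicate 1 the medians of both lists were above 0, at 0.01 for the serine proteases and 0.02 for the carboxy- and aminopeptidases.

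Enzymes and proteins of the sugar meal and the matrix did not stand apart. The 11 maltases, amylase and trehalases had a median of 0.06, from a trehalase (EN028617) at -0.64 to a maltase (EN008952) at 0.48, and the 9 lipases had a median of -0.03. Without the 2 arrays that stood apart the median of the former was -0.34, with 1 of 11 positive. Peritrophins and chitin-binding proteins had a median of 0.06 over 20 members. The highest was a protein with a peritrophin A domain (EN022855) at 0.86 ± 0.38 (SE), whose anterior arrays lay above all posterior arrays, and the lowest was EN023523 at -0.56 ± 0.37 (SE). The ratio of EN023523 was 1 between the dyes on anterior replicate 2 and posterior-posterior replicate 1.

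Antimicrobial peptides and lysozymes had the highest list median, at 0.49 over 7 members with 5 positive, beside 0.01 and 51.4% over all transcripts. Cecropin 2 (EN011963), a peptide that lyses bacteria, had 1.38, 1.46 and 0.03 on the anterior arrays, 1.11, -0.24 and -0.29 on the anterior-posterior and 0.53, -0.90 and 0.03 on the posterior-posterior arrays. Anterior replicate 3 lay among the posterior values, and the difference was 0.91 (95% interval -0.12 to 1.95). A lysozyme (EN018439), which cleaves bacterial cell walls, had 1.25, 1.84 and 1.49 on the anterior, 1.30, 1.49 and 0.27 on the anterior-posterior and 0.59, -0.74 and 1.07 on the posterior-posterior arrays. The anterior arrays were above the posterior-posterior arrays and overlapped with the anterior-posterior ones, with a difference of 0.86 (95% interval -0.10 to 1.82).

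The remaining effectors had smaller differences with wide intervals. Cecropin 3 (EN011995) had 0.63 (95% interval -1.03 to 2.28), gambicin (EN013255) 0.43 (-0.73 to 1.58), the lysozyme EN018395 0.49 (-0.31 to 1.30) and defensin 1 (EN015621) -0.14 (-1.01 to 0.74). The ratio of gambicin was 1 between the dyes on posterior-posterior replicate 1, and that of cecropin 3 on all 3 arrays counted above. The lowest member was a lysozyme (EN025055) at -0.23 (-1.25 to 0.79), whose mean on the cardia versus posterior arrays was also negative, at -0.58. Without the 2 arrays that stood apart the list median was -0.17 with 3 of 7 positive, cecropin 3 was at -0.22 and gambicin at -0.17. On the cardia versus posterior arrays the list had a median of 1.60, and its 3 arrays gave cecropin 2 (EN011963) 1.64, 1.70 and 1.86. Without anterior-posterior replicate 3 alone the median of the difference was 0.04.

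Of the other immune transcripts that the study names for these compartments, 2 are given by array. Nitric oxide synthase (EN019316), which makes a toxic radical that acts on parasites, had 0.69, 1.27 and -0.22 on the anterior arrays, 2.52, 1.95 and 2.29 on the anterior-posterior and -0.01, 0.23 and 0.43 on the posterior-posterior arrays. All anterior-posterior arrays were above all others, and the anterior and posterior-posterior arrays overlapped. Its difference was -1.67 against the anterior-posterior and 0.36 against the posterior-posterior part, and -0.66 (95% interval -1.48 to 0.17) against both. PGRPLB (EN013948), which cleaves bacterial peptidoglycan, had 0.92, 1.13 and 0.95 on the anterior arrays, 1.22, 1.94 and -0.14 on the anterior-posterior and 0.01, 0.06 and 0.27 on the posterior-posterior arrays. The anterior arrays were above all posterior-posterior arrays, by a difference of 0.88, and among the anterior-posterior ones, by -0.01.

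The named recognition proteins of other families had intervals that included 0. TEP1 (EN016857), which binds to malaria parasites, had 0.12 (95% interval -0.67 to 0.92), TEP16 (EN021282) 0.43 (-0.56 to 1.42), and EN016283, named TEP3 in the study text and TEP6 in its tables, 0.17 (-0.68 to 1.02). FBN7 (EN008282), of the fibrinogen-domain family, had -0.44 (-1.28 to 0.41). Of the C-type lectins, CTL4 (EN021138) had -0.58 (-1.42 to 0.25) and CTLMA2 (EN020902) 0.02 (-0.72 to 0.75).

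**Figure D4:**
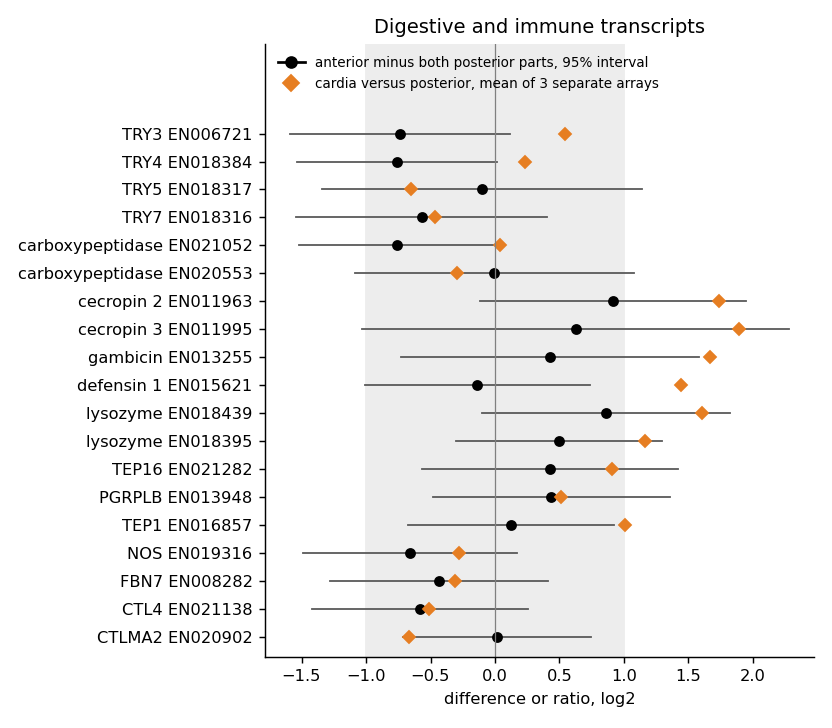
Difference of the anterior midgut and both posterior parts (black points, with the limma 95% interval as a line) and mean centred cardia versus posterior ratio of 3 separate arrays (orange diamonds) for 19 digestive and immune transcripts, both on the log2 scale. Every interval includes 0 and the grey band marks less than a 2-fold difference, while cecropins 2 and 3, gambicin, defensin 1 and the 2 lysozymes shown lie beyond 1 on the cardia versus posterior arrays.

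By family, 9 of 21 thioester-containing proteins were positive (median -0.19), 17 of 47 fibrinogen-domain proteins (-0.12), 7 of 14 peptidoglycan and glucan recognition proteins (-0.04) and 9 of 14 lectins and galectins (0.11). The lowest thioester-containing probe was EN016849, described above, and the highest was EN027667 at 1.04 ± 0.63 (SE). EN027667 had -0.47, -0.64 and 2.44 on the anterior arrays, and without anterior replicate 3 its difference was 0.043. PGRPLC1 (EN010323), a membrane receptor for peptidoglycan, led its family at 0.82 ± 0.34 (SE). Of the leucine-rich repeat proteins 15 of 18 were positive, with a median of 0.15, which was 0.03 without the 2 arrays that stood apart. CLIP proteases, serpins and prophenoloxidases had a median of 0.18, with serpin 6 (EN010545) highest at 1.005 ± 0.57 (SE) and SRPN7 (EN020725) lowest at -1.06 ± 0.55 (SE). Probes of these families can share targets, so that single members are uncertain.

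Transport and detoxification lists had medians near that of all transcripts. The 57 transporters and exchangers had a median of 0.10, with 1 at least 2-fold higher, the glucose transporter, and 1 at least 2-fold lower, the sodium/hydrogen exchanger. The 13 subunits of the V-ATPase, the proton pump that energizes the insect gut, had a median of 0.10 and ran from -0.55 to 0.36. Of the 30 channels, aquaporins and carbonic anhydrases 14 were positive, with a chloride intracellular channel (EN022496) highest at 1.02 ± 0.47 (SE) and a calcium channel subunit (EN020924) lowest at -0.98 ± 0.56 (SE). Of the 38 cytochromes P450 19 were positive, and their median was 0.01.

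Growth and energy lists moved with the 2 arrays that stood apart. The 12 glycolytic enzymes had a median of 0.32 with 9 positive, the 14 transcripts matched as heat shock or HSP 0.29 with 12 positive, among which a subunit-interacting protein of translation initiation factor 3 (EN017082, 0.15) was matched by its letters alone, and the 15 transcripts of the secretory pathway 0.23 with 11 positive. Without the 2 arrays these medians were -0.18, -0.04 and 0.00. The 34 transcripts of the respiratory chain and ATP synthase had -0.11 with 12 positive and the 64 cytosolic ribosomal proteins -0.10 with 25 positive, and both were further below 0 without the 2 arrays, at -0.55 and -0.47. Leaving out the 27 ribosomal proteins with a ratio of 1 between the dyes turned their median to 0.05. At least 2-fold were 0 ribosomal proteins on the anterior and 2 on the posterior side. The largest single differences were 60S L37 (EN014199) at -1.29 ± 0.43 (SE) and the epsilon chain of ATP synthase (EN010662) at -1.11 ± 0.55 (SE). EN014199 had a small-fraction ratio on 3 of the 9 arrays and EN010662 on 2. Mitochondrial ribosomal proteins had a median of -0.03 and tRNA synthetases of -0.04.

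**Figure D5:**
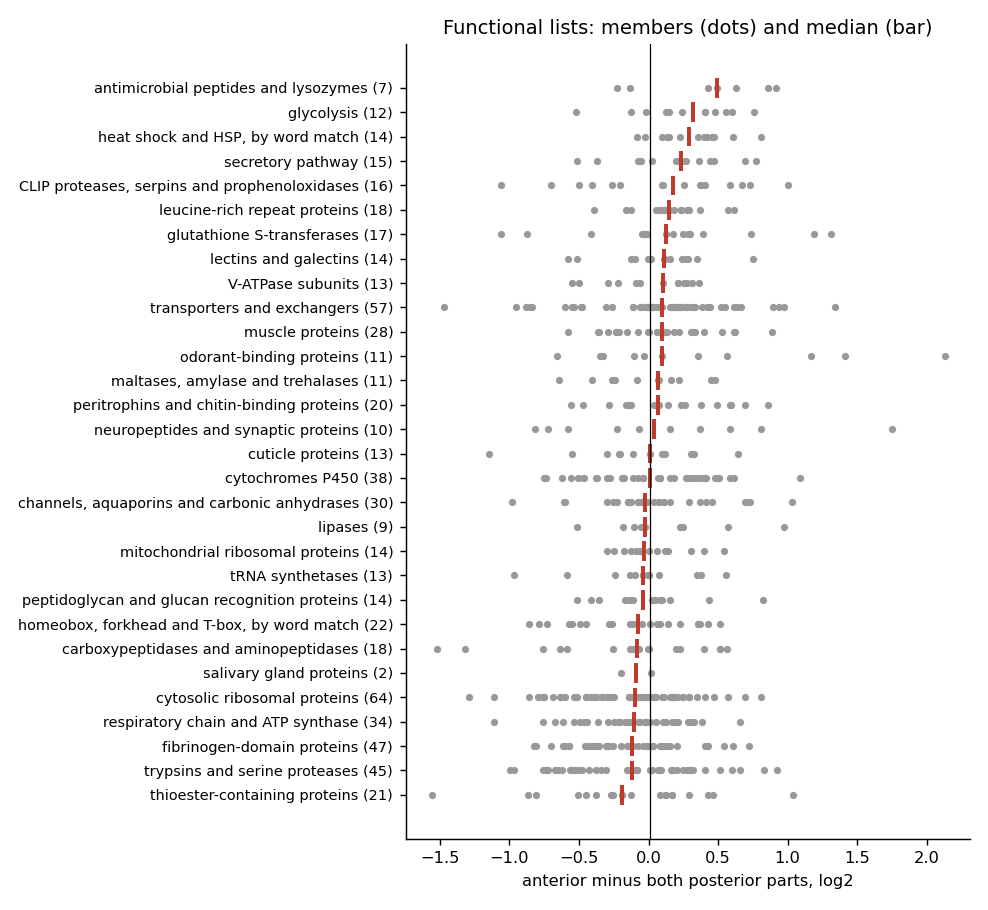
Difference of the anterior midgut and both posterior parts on the log2 scale (horizontal axis) for the members of 30 functional lists (grey points), with the list median as a red bar, the number of measured members in brackets and the median of all transcripts as a black line. List medians lie between -0.19 and 0.49, and most members lie within 1 of 0.

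Markers of other cells were measured for the same arrays. The median of the 28 muscle proteins was 0.811, 0.915 and 0.787 on the anterior arrays, 1.22, 1.19 and 0.122 on the anterior-posterior and 0.582, 0.12 and 0.536 on the posterior-posterior arrays. The anterior arrays lay below 2 anterior-posterior arrays and above the other 4 posterior arrays, with 18 of 28 members positive and a median difference of 0.10, which was -0.07 without the 2 arrays. The 13 cuticle proteins, taken as markers of foregut and crop although their names give no tissue, had a median of 0.01. Only 2 salivary gland transcripts were measured, at 0.02 and -0.20. Of 22 transcripts matched by the words homeobox, forkhead or T box, families of regulators that set regional identity, 10 were positive, from an NK2 homeobox factor (EN020257) at -0.86 ± 0.46 (SE) to an engrailed-type factor (EN023279) at 0.51 ± 0.38 (SE). The match also took in 2 subunits of a CCAAT-binding factor (EN000021 at -0.79 and EN019734 at -0.13), which belong to none of these families. The part of these cells in the differences above was not tested.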

How the data were processed

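The deposited table holds a log2 value, the Cy5 over Cy3 ratio, for 15495 spots, of which 2 to 479 were blank on each of the 9 arrays. The authors measured spots with a GenePix scanner, and their methods name a cut-off of 100 signal units and LOWESS. The deposited values show no sign of these steps. Few spots were blank, whereas the cut-off was meant to remove spots of low signal. The array medians were -2.35 to -0.93, whereas LOWESS was meant to adjust for dye bias. The sources used here do not state how the deposited values were made, and no intensities were analysed here. A log2 value of 16.6096, a ratio of 100000, was treated as missing. Spots were averaged by transcript, each array was centred on its median, and transcripts without 9 values (793) were left out. The 3 groups were fitted with limma 3.58.1 in R 4.3.3, which was tested on simulated data. A call needed an adjusted p under 0.05 and a 2-fold difference. Tables were made with Python 3.11 and pandas 2.3.3. Homology names came from the study's supplementary tables, where 1780 complete transcripts have exactly 1 name, and family names from probe identifiers. Named transcripts are the ends of each list and those the study names, and others are said to be chosen after their values were seen. The 30 lists, the comparison and its transcripts were chosen with earlier results of these data known. Precision is limited by the number of arrays. Alternatives covered centring, filters, spots, test and single arrays.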

Additional observations from a re-analysis of the deposited data

How the results depend on the processing

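Under every alternative fitted with limma, which included centring on the male versus female list, no centring, quantile normalization, array weights, a robust variance prior, 1 fit of 18 arrays, adjusted p alone and leaving out each array (0 to 0 calls in each comparison), no transcript was called. Of the rules without limma's adjustment, the t-test with pooled variance, unadjusted and with a 2-fold difference, gave 41 higher in the anterior midgut and 54 higher in the posterior parts. It gave 207 against the anterior-posterior and 156 against the posterior-posterior part. A 2-fold difference alone gave 121, 286, 873 and 661. With the replicate block limma called 0 transcripts. Same-numbered arrays deviated from their group means with r of -0.363 to 0.123 over 9 pairs, 1 of them over 0.1. No pairing by number was seen, but these values cannot show whether same-numbered samples came from the same mosquitoes. The counts of transcripts at least 2-fold higher in the anterior midgut or the posterior parts were 1013 and 66 with no centring, 62 and 81 among the transcripts of the supplementary tables and 43 and 50 among transcripts with no small-fraction ratio, where fewer were tested, and the first was 188 with quantile normalization. Leaving out 1 array gave 117 to 255 and 245 to 546. Adding the level of the study list on each array as a covariate, chosen after seeing the data, gave 0 calls and 121 and 314 at 2-fold.

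Of 100 named transcripts, 10 values of 2318 turned sign and moved by more than the SE. These were EN016283 with array weights (-0.257), EN021282 without anterior replicate 2 (-0.084, beside 0.941 without anterior replicate 3), EN008282 (0.012), EN015621 (0.312), EN014441 (0.056) and EN010799 (0.365) with no centring, and EN011995 (-0.223), EN013255 (-0.168), EN002729 (-0.060) and EN008952 (-0.170) without both arrays that stood apart. The cause was not tested. No signal over background was at hand. Of 1034 transcripts with more than 1 complete spot, 47.9% had spots with differences of opposite sign.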
